A study of Mus musculus with 10 samples.

Results

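The clustered histone genes were followed in mouse prostate organoids after drug treatment or gene deletion aimed at EZH2, the enzyme through which Polycomb repressive complex 2 methylates histone H3. They were the rows whose symbol, given in capitals as deposited, starts with HIST, a digit and H. There were 67 such rows among the 24043 of the chemical experiment and the same 67 among the 24016 used of the genetic experiment. The set was taken up because HIST1H2BJ was far lower in organoids given DZNep. Differences between DZNep and DMSO libraries are therefore given for these genes as a description, with no p-value for any of them. Counts past limma's threshold only say where the genes lie, and nothing is read from them. The rule for this choice did not use the Tamoxifen libraries, though earlier results of these data were known when it was made.

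By family, the 67 genes comprised 6 of linker histone H1, 18 of H2A, 18 of H2B, 12 of H3 and 13 of H4. In RefSeq (GRCm38), 53 lie on chromosome 13 (HIST1H2AP included, whose symbol matches more than 1 RefSeq gene there), 10 on chromosome 3, 3 on chromosome 11 and 1 on chromosome 6. Pairs of H2A, H2B, H3 and H4 proteins form the core around which DNA is wrapped, and H1 binds the DNA between such cores. Replication-dependent histone genes are switched on as cells copy their DNA, and most of their mRNAs end in a stem-loop in place of a poly(A) tail. The stem-loop binding protein SLBP holds this loop through processing, translation and decay, and the mRNAs are degraded once replication stops. Some of these genes also give longer polyadenylated transcripts, so libraries made by poly(A) selection see the family only in part.

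RNA came from 3-dimensional cultures of the dorsal-lateral prostate lobe of C57BL/6 mice aged 8 weeks. All organoids, controls included, overexpressed MYC and carried floxed Ezh2 together with PSA-CreERT2, and all were grown in 10 nM R1881, a synthetic androgen. The groups were 1 µM DZNep (3 libraries) against DMSO (3 libraries), and 1 µM Tamoxifen (2 libraries) against ethanol, EtOH (2 libraries), each for 3 days. DZNep inhibits S-adenosylhomocysteine hydrolase and served as the chemical EZH2 inhibitor. Tamoxifen activates CreERT2, here only in cells that use the PSA promoter, and organoids without Cre given Tamoxifen are not analysed here. Whether replicate libraries stem from separate cultures or animals is not given in the labels, so a p-value reflects library-to-library spread, which may be technical.

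EZH2 itself measured 22.5, 24.2 and 24.7 RPKM in DZNep libraries, against 30.4, 29.8 and 27.1 RPKM in DMSO libraries (limma adjusted p = 0.0142; exact two-sided permutation p = 0.1, the smallest that 3 against 3 allow). In the genetic experiment it measured 32.0 and 33.2 RPKM with Tamoxifen and 27.9 and 34.0 RPKM with EtOH (limma adjusted p = 0.635; exact permutation p = 1, where 0.333 is the smallest possible). A value for the whole gene does not check the deletion. RPKM totals ran from 469455 to 512726 per library, and absolute depth is unknown. On the spacing of the lowest values, DZNep 2 had 0.689 times the depth of DZNep 1, and the other chemical libraries 0.862 to 1.05 times. Luminal markers summed to 4150 to 4379 RPKM in DZNep and 4145 to 4309 RPKM in DMSO libraries, with PBSN, which encodes probasin, at 0 throughout. Of the 9 luminal markers tested 3 were called higher and 0 lower, where 16.6% and 11.1% of all genes were. The mean log2(RPKM + 1) of the 10 listed was 6.32 to 6.34 in DZNep and 6.19 in DMSO libraries. Basal markers summed to 6711 to 6984 RPKM in DZNep libraries and 4955 to 5253 RPKM in DMSO libraries. Keratin genes carried this sum: KRT5, KRT14 and KRT15 were called higher with DZNep, as was NGFR, whereas ITGA6 was called lower (39.2 RPKM in DZNep and 48.1 RPKM in DMSO libraries on average; -0.29, limma adjusted p = 0.00943) and TRP63 was not called (-0.04, limma adjusted p = 0.655).

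The stem-loops of 8 genes are shown because they include genes with large negative, near-zero and positive differences after DZNep. Each is a stretch of 26 bases of the GENCODE M21 transcript (GRCm38), read 5′ to 3′ as DNA letters, and the 16 capitals mark the loop and its stem.
HIST1H2BJ: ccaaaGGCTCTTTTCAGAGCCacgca
HIST1H3C: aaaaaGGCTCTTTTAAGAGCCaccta
HIST1H3A: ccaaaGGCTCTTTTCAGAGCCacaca
HIST1H4D: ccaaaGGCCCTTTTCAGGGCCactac
HIST1H4I: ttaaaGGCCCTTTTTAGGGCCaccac
HIST1H1C: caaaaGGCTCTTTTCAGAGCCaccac
HIST2H2AA1: aaaaaGGCTCTTTTCAGAGCCaccca
HIST3H2A: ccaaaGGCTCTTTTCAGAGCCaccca
The consensus of the histone 3′ stem-loop was searched on the transcript strand. It occurred after the stop codon in the longest coding transcript of 43 of the 67 genes. Transcripts annotated only up to the stop codon could not show it. Of all 55450 GENCODE genes, 89 (0.16%) held it anywhere in any transcript, a wider search. Of the 6 forms found among the 43, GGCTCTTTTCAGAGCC stood in 25 genes, HIST1H2BJ, HIST2H2AA1 and HIST3H2A among them. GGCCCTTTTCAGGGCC stood in 7 genes, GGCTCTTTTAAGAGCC in 6, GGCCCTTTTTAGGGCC and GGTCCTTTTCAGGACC in 2 each, and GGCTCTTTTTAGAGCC in 1. The same 16 letters thus stood in the gene with the deepest difference after DZNep and in genes that were higher. HIST1H2BC did not hold the consensus in its longest coding transcript, of 1156 bases and 2 exons, 742 bases of which follow the stop codon. Whether a shorter transcript of this gene holds it was not examined.

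Promoter sequence is given for the 2 genes with the largest negative differences after DZNep and the gene with the largest positive difference. The windows run from 250 bases before to 50 after the RefSeq start (GRCm38.p6), 5′ to 3′ on the gene's strand, with capitals for the CCAAT box and TATAA on either strand. They are chr13:22042948-22043247 (plus strand) for HIST1H2BJ, chr13:23745472-23745771 (minus strand) for HIST1H3C and chr3:96245247-96245546 (plus strand) for HIST2H2AA1.
HIST1H2BJ: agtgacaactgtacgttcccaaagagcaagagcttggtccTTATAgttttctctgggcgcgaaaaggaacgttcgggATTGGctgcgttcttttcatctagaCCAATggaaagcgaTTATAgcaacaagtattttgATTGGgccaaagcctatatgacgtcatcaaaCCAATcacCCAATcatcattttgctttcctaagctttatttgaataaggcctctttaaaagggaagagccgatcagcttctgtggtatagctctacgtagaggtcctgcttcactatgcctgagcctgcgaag
HIST1H3C: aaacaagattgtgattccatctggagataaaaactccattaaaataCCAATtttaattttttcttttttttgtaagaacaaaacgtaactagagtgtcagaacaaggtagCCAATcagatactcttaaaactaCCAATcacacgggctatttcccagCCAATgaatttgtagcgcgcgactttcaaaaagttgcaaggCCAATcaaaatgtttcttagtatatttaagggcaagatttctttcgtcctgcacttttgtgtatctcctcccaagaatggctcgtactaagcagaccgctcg
HIST2H2AA1: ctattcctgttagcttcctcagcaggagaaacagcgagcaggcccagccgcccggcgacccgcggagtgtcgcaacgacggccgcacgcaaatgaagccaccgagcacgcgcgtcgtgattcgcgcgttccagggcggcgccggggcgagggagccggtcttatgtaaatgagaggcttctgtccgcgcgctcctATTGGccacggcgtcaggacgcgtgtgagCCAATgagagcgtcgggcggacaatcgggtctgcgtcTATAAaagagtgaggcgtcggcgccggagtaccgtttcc
HIST1H2BJ had 5 CCAAT boxes and 2 TATAA in this window, HIST1H3C had 5 and 0, and HIST2H2AA1 had 2 and 1. A promoter was listed for 60 of the 67 genes. A gene counted once if any of its windows held the letters. CCAAT (or its reverse complement ATTGG) stood in 85.0% of these 60 genes and in 41.1% of all 27018 genes with a promoter. TATAA (or TTATA) stood in 80% and 28.0% of the same sets. The octamer ATTTGCAT (or ATGCAAAT), which POU factors bind, stood in 23.3% of the histone genes and 2.0% of all genes. It was found in 41.2% of H2A and 46.7% of H2B genes with a promoter and in 0 of the other families. Every H1, H2A, H2B and H3 gene with a promoter held a CCAAT box there, against 25% of the 12 H4 genes. Motifs were counted wherever their letters stood, so they may overlap, and a match is a description, not a site or a cause.

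In the organoids the clustered histone genes were weakly detected. Their 67 values summed to 74.9, 69.3 and 74.8 RPKM in DZNep libraries, against 115, 104 and 97.3 RPKM in DMSO libraries. The sums of the groups did not overlap, with a DZNep mean of 73.0 ± 3.21 RPKM and a DMSO mean of 105 ± 9.05 RPKM (SD, n = 3 each). In bulk RNA, fewer cells in S phase and less histone mRNA per cell cannot be told apart. HIST1H2BC alone gave 13.8 ± 0.797 RPKM of the DZNep sum and 9.73 ± 0.699 RPKM of the DMSO sum. Without it, the remaining 66 genes summed to 0.618 times the DMSO mean in DZNep libraries.

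A filter of a mean of at least 1 RPKM was passed by 28 of the 67 genes in the chemical experiment and 38 in the genetic one. Both filters were passed by 27 genes, the chemical one alone by 1, the genetic one alone by 11, and neither by 28. In the chemical experiment the genes nearest to the limit were HIST1H2BH (1.02 RPKM) inside and HIST1H4B (0.97 RPKM) outside, and in the genetic one HIST2H2BE (1.03 RPKM) inside and HIST1H2AP (0.974 RPKM) outside. HIST1H2AA was listed at 0 in all 10 libraries, and HIST1H1T in all but DZNep 1.

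Of the 28 genes past the filter after DZNep, limma called 17 lower, where 11.1% of all 11143 genes tested were called lower. It called 2 higher, HIST1H2BC and HIST2H2AA1, where 16.6% of all genes were called higher. Either way 19 were called (27.7% of all genes), and 21 had an unadjusted p under 0.05 (41.7%). Groups did not overlap in 18 lower (19.4%) and 3 higher (26.1%). With no filter, 27 of 66 were called lower (7% of all genes then tested) and 2 higher (10.3%). The count of lower genes was 13 without DZNep 3 and 14 to 17 without any other library. The median difference of the 28 genes was -0.55 in log2(RPKM + 1), beside 0.01 for all genes tested, and 24 lay below 0 and 4 above. The choice of the set used this contrast, and a gene can pass the filter through its DMSO values alone, so nothing is read from these shares. Differences on this scale understate the change of weakly expressed genes, and ratios of mean RPKM are given beside them.

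**Figure D1:**
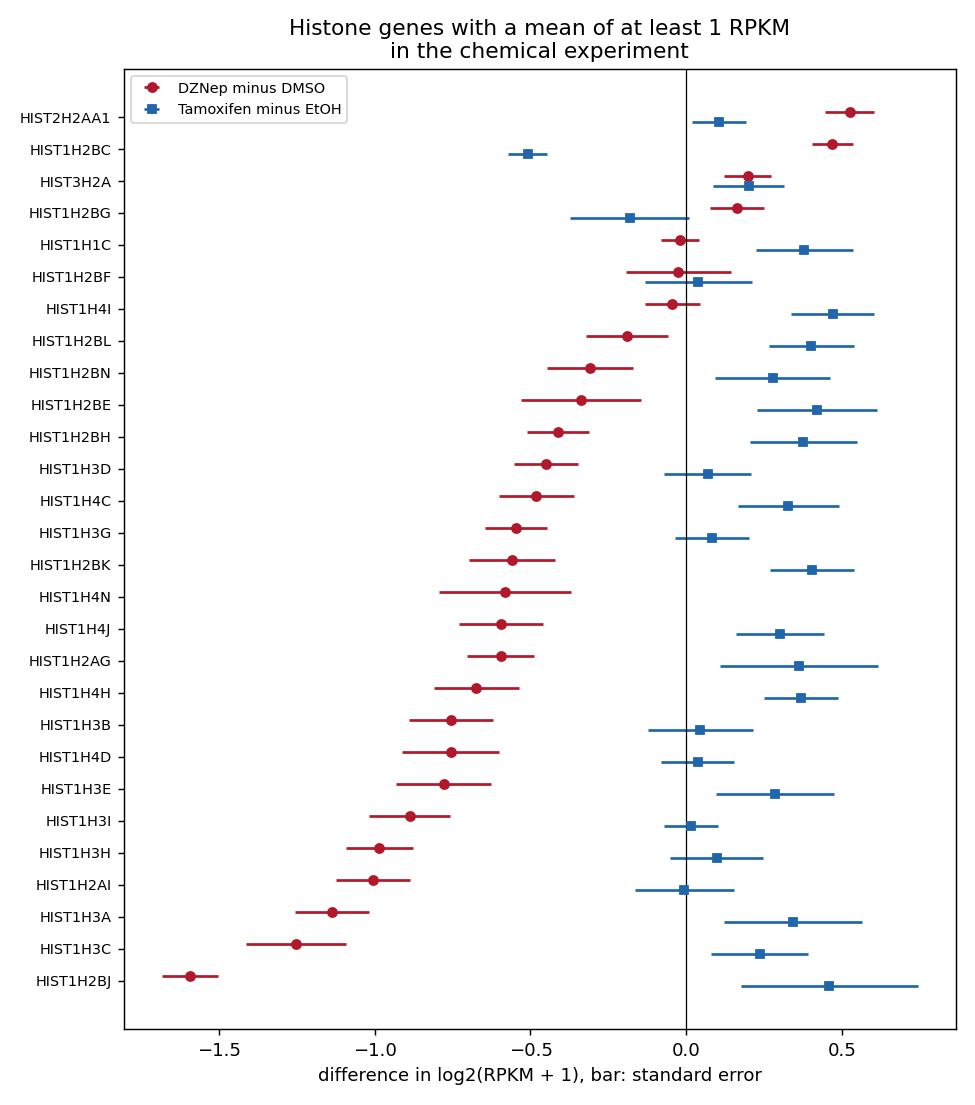
Difference in log2(RPKM + 1) for the 28 histone genes past the filter in the chemical experiment, as DZNep minus DMSO (red circles, 3 libraries against 3) and Tamoxifen minus EtOH (blue squares, 2 against 2), with bars for the standard error and genes ordered by the DZNep difference. DZNep differences run from 0.53 for HIST2H2AA1 to -1.59 for HIST1H2BJ, and HIST1H4N has no Tamoxifen value because it did not pass that filter.

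Among H3 genes after DZNep, all 8 tested were called lower, with a median difference of -0.83 and a range of -1.25 to -0.45. Over all 12 H3 genes, those below the filter included, the mean was lower in 10 and higher in 2. These 2 were HIST2H3C1, at under 0.001 RPKM on average, and HIST2H3C2 (0.962 RPKM with DZNep and 0.876 RPKM with DMSO), both with overlapping groups. Of 6 tested H4 genes 4 were called lower (median -0.59), of 9 H2B genes 3 were lower and 1 higher (median -0.31), and of 4 H2A genes 2 were lower and 1 higher (median -0.20). The only H1 gene tested, HIST1H1C, lay at -0.02. Over all genes tested 11.1% were called lower and 16.6% higher, and nothing is read from the family counts, since the choice of the set used this contrast. Differences between families were not tested.

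H3, which carries the lysine that EZH2 methylates, showed the lowest summed level relative to DMSO. Its 12 genes summed to 7.90, 6.93 and 8.65 RPKM in DZNep libraries, against 23.5, 20.4 and 17.6 RPKM in DMSO libraries, a ratio of means of 0.382. Every DZNep library lay below every DMSO library. The 13 H4 genes summed to 12.9 ± 1.01 RPKM in DZNep and 21.6 ± 1.5 RPKM in DMSO libraries (SD, n = 3 each; ratio 0.594). The 18 H2A genes gave 16.95 ± 0.237 RPKM with DZNep and 21.3 ± 0.684 RPKM with DMSO (ratio 0.795), also without overlap. H2B genes gave 27.1 ± 1.28 RPKM with DZNep and 33.0 ± 3.73 RPKM with DMSO (ratio 0.822), or 13.3 ± 1.13 with DZNep and 23.3 ± 3.66 with DMSO once HIST1H2BC was left out (ratio 0.571). The 6 H1 genes overlapped, at 7.33 to 9.10 RPKM with DZNep and 8.51 to 9.48 RPKM with DMSO.

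**Figure D2:**
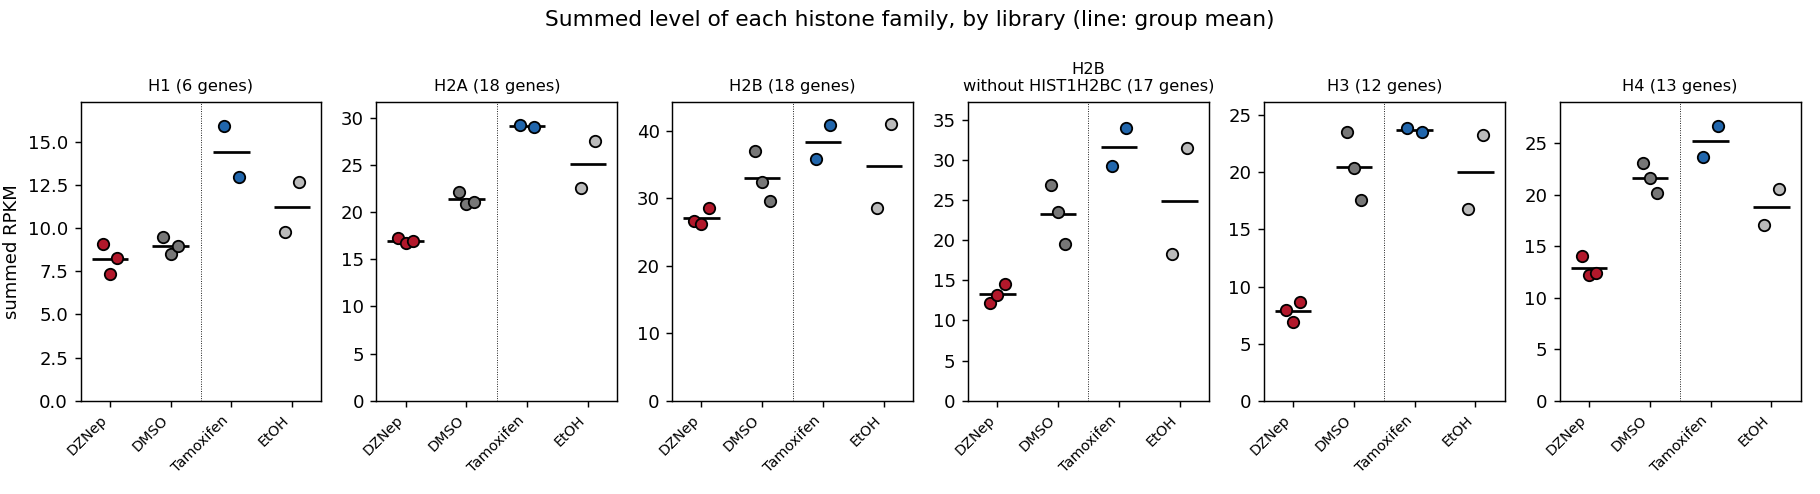
Summed RPKM of each histone family in every library (points) with the group mean (line), DZNep beside DMSO and Tamoxifen beside EtOH, on axes that start at 0. The DZNep libraries lie below the DMSO libraries for H2A, H2B, H3 and H4 but overlap them for H1, and EtOH 1 is the lowest of the genetic libraries in every panel.

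HIST1H2BJ, an H2B gene of the chromosome 13 cluster, measured 1.21, 0.860 and 1.22 RPKM in DZNep libraries, against 5.38, 5.73 and 4.86 RPKM in DMSO libraries. The groups lay far apart, and DMSO 3, the lowest control, was still above every DZNep library. Its mean was 4.85-fold lower with DZNep, a difference of -1.59 (SE 0.0902). That transcript shares 59.4% of its windows (every stretch of 50 bases) with HIST1H2BQ, so its reads cannot all be assigned to 1 gene. HIST1H2BK measured 1.24, 1.26 and 1.15 RPKM with DZNep and 3.15, 1.91 and 1.87 RPKM with DMSO, without overlap (-0.56), and HIST1H2BH likewise differed by -0.41. The 4 other tested H2B genes below 0, namely HIST1H2BE (-0.34), HIST1H2BN (-0.31), HIST1H2BL (-0.19) and HIST1H2BF (-0.02), had overlapping groups and were not called.

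HIST1H3C measured 0.984, 0.720 and 1.68 RPKM in DZNep libraries, against 4.37, 3.38 and 4.27 RPKM in DMSO libraries. HIST1H3A, the H3 gene next in size of difference, measured 0.865, 0.707 and 0.719 RPKM with DZNep and 3.66, 2.72 and 2.37 RPKM with DMSO. Neither gene's groups overlapped, and the means were 3.55-fold and 3.82-fold lower with DZNep (differences of -1.25, SE 0.160, and -1.14, SE 0.119). The other tested H3 genes were HIST1H3H (-0.99), HIST1H3I (-0.89), HIST1H3E (-0.78), HIST1H3B (-0.76), HIST1H3G (-0.55) and HIST1H3D (-0.45). All 8 averaged 0.574 to 1.13 RPKM with DZNep and 1.42 to 4.01 RPKM with DMSO, with no overlap in any of them. HIST1H3H shares 93.9% of its windows with other genes and HIST1H3I 87.6%, each most with the other. Their values are therefore not separate measurements.

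Among H2A genes the 2 called lower were HIST1H2AI and HIST1H2AG. HIST1H2AI measured 0.430, 0.521 and 0.838 RPKM with DZNep and 2.61, 2.05 and 1.94 RPKM with DMSO, a 3.69-fold lower mean (-1.01, SE 0.119) without overlap. Its annotated transcript shares 90.1% of its windows with other genes, most with HIST1H2AD. HIST1H2AG differed by -0.60 (SE 0.108). For H4, HIST1H4D measured 2.28, 1.83 and 1.31 RPKM with DZNep and 2.86, 4.09 and 4.27 RPKM with DMSO, a 2.07-fold lower mean (-0.76, SE 0.155). HIST1H4H (-0.67), HIST1H4J (-0.59) and HIST1H4C (-0.48) were also called lower and did not overlap, whereas HIST1H4N (-0.58) did not overlap but was not called.

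HIST1H2BC, an H2B gene and the most abundant of the 67 per length in the chemical libraries, was higher with DZNep. It measured 14.5, 13 and 14.1 RPKM in DZNep libraries, against 10.2, 8.92 and 10.1 RPKM in DMSO libraries, 1.42-fold higher in mean (0.47, SE 0.0654). HIST2H2AA1 on chromosome 3 measured 4.04, 4.36 and 3.63 RPKM with DZNep and 2.21, 2.70 and 2.52 RPKM with DMSO, 1.62-fold higher in mean (0.53, SE 0.0792). The groups of neither gene overlapped. HIST2H2AA1 shares 89.4% of its windows with GM20634, and its near-copy HIST2H2AA2 never reached 0.001 RPKM. HIST3H2A on chromosome 11 measured 8.33, 8.42 and 8.06 RPKM with DZNep and 6.18, 7.48 and 7.67 RPKM with DMSO. It was separated but not called (0.20, SE 0.0755), and 31.5% of its windows also belong to the overlapping gene TRIM17. HIST1H2BG lay at 2.44, 2.36 and 2.63 RPKM with DZNep and 2.42, 2.13 and 1.77 RPKM with DMSO, with overlap (0.17, SE 0.0868).

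The groups of HIST1H1C and HIST1H4I overlapped. HIST1H1C, a linker histone gene, measured 7.05, 6.25 and 6.06 RPKM with DZNep and 6.50, 6.38 and 6.76 RPKM with DMSO (-0.02, SE 0.0618). HIST1H4I measured 4.02, 4.53 and 4.46 RPKM with DZNep and 5.26, 4.31 and 4.01 RPKM with DMSO (-0.04, SE 0.0886).

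**Figure D3:**
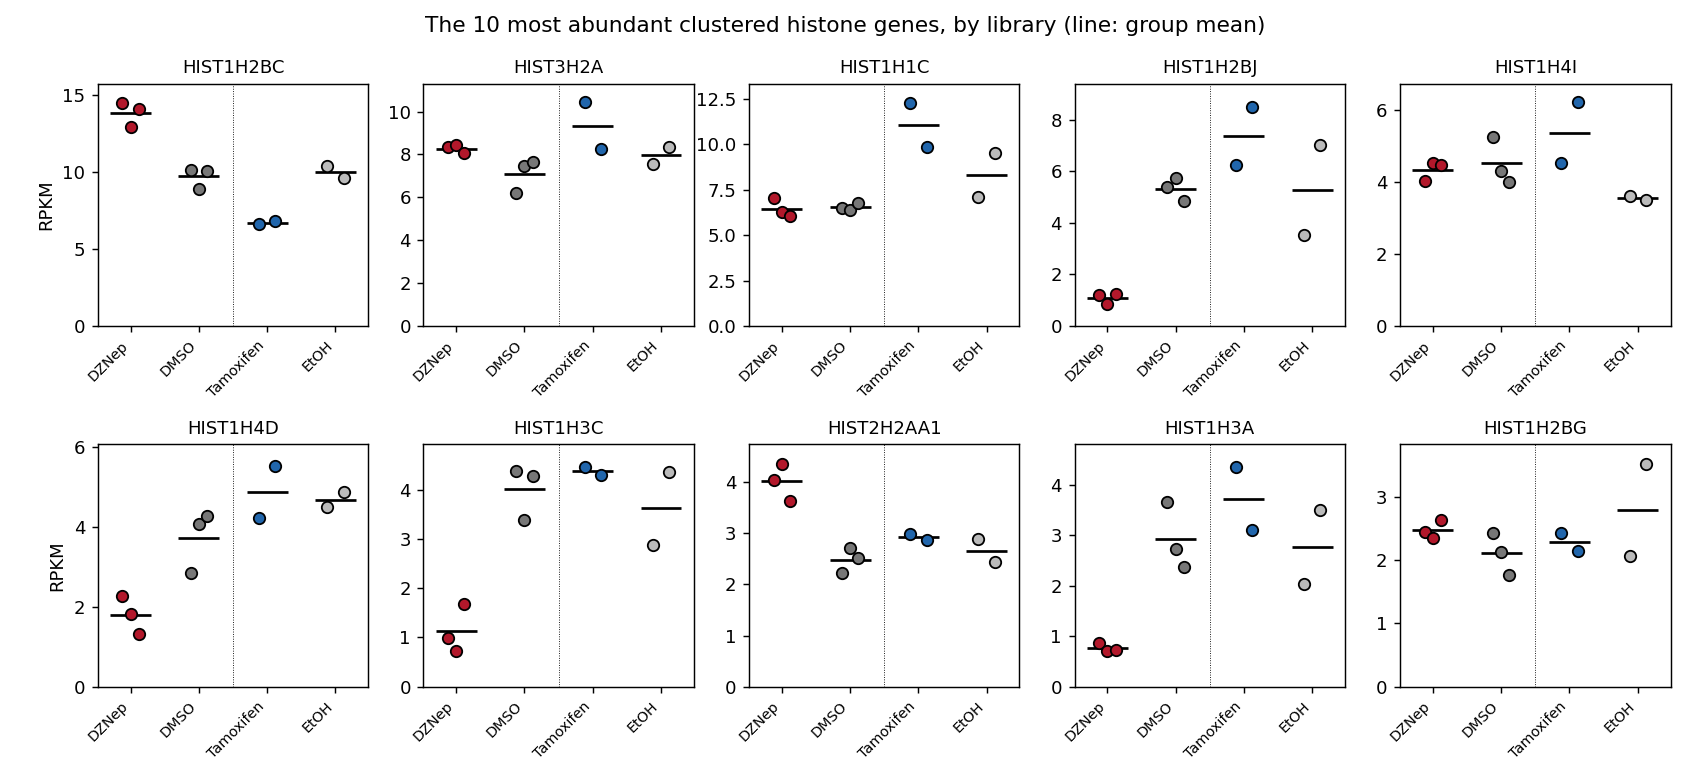
RPKM of the 10 histone genes with the highest mean over all 10 libraries, 1 point per library and a line at the group mean, on axes that start at 0 and differ between genes. DZNep libraries lie below DMSO libraries for HIST1H2BJ, HIST1H4D, HIST1H3C and HIST1H3A and above them for HIST1H2BC, HIST3H2A and HIST2H2AA1, whereas HIST1H2BC is lower in Tamoxifen than in EtOH libraries.

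Below the filter in the chemical experiment lay 39 genes. Their mean was lower with DZNep in 34 and higher in 4, and 1 was equal. In 19 every DZNep library lay below every DMSO library, where 9.16% of all rows with a mean under 1 RPKM and above 0 did so, and in 1 every DZNep library lay above (10.8% of such rows). That 1 was HIST2H2AA2, at under 0.001 RPKM. HIST1H2BB, for example, measured 0.358, 0.574 and 0.524 RPKM with DZNep and 1.36, 1.55 and 0.743 RPKM with DMSO. Over all 67 genes the mean was lower in 58 and higher in 8, and the groups did not overlap in 37 lower (15.8% of all rows above 0) and 4 higher (20.7%). Since the choice of the set used this contrast, nothing is read from these counts. Some genes below the filter also share windows with genes past it.

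In 6 of 10 libraries only 1 of the near-identical genes HIST1H4M and HIST1H4N had a value of 0.001 RPKM or more. HIST1H4N shares 89.8% of the 50-base windows of HIST1H4M. HIST1H4M stayed under 0.001 RPKM in DZNep 1, DMSO 1 and EtOH 2, where HIST1H4N measured 1.08, 2.49 and 1.86 RPKM, and HIST1H4N stayed under 0.001 RPKM in both Tamoxifen libraries and EtOH 1, where HIST1H4M measured 2.40, 2.97 and 1.41 RPKM. Both had values in the other 4 libraries, where HIST1H4M measured 0.350 and 0.516 RPKM in DZNep 2 and DZNep 3 and 1.5 and 0.336 RPKM in DMSO 2 and DMSO 3, and HIST1H4N 0.374 and 1.21 RPKM in DZNep 2 and DZNep 3 and 1.69 and 1.25 RPKM in DMSO 2 and DMSO 3. Their sum was 1.08, 0.724 and 1.72 RPKM with DZNep and 2.49, 3.19 and 1.58 RPKM with DMSO, with overlap. Over the 67 genes a median of 49.3% of windows was shared with some other gene, and 31 genes shared at least 50%. No source used here states how reads that match several genes were assigned, so values of single genes are uncertain where that share is high.

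The annotated 3′ end divided the genes further. In GENCODE, 21 transcripts end within 100 bases of the stem-loop, 22 run past it by more, 18 end within 100 bases of the stop codon with no loop, 5 are longer with no loop, and 1 is a pseudogene. Past the filter, genes with a short end after the loop had a median DZNep difference of -0.64 (10 genes), those with a long end after the loop -0.41 (11 genes) and those that end within 100 bases of the stop codon with no loop -0.72 (6 genes). Both ends of the range, HIST1H2BJ at -1.59 and HIST2H2AA1 at 0.53, fell in the first class. HIST1H2BC, the 1 tested gene whose longest coding transcript had a long end and no loop, lay at 0.47. Shorter transcripts were not used for these classes. HIST3H2A, whose transcript runs 1643 bases past its loop and holds AATAAA in its last 50 bases, lay at 0.20. Of the 6 tested genes that end near the stop codon with no loop, HIST1H2AI, HIST1H3H, HIST1H3I, HIST1H2BN and HIST1H2BL have 0 annotated bases after it. A loop was sought only after the stop codon, so none could be found in them. Whether these genes carry a loop is not known from the annotation. Classes were drawn from the annotation and were not tested against each other.

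**Figure D4:**
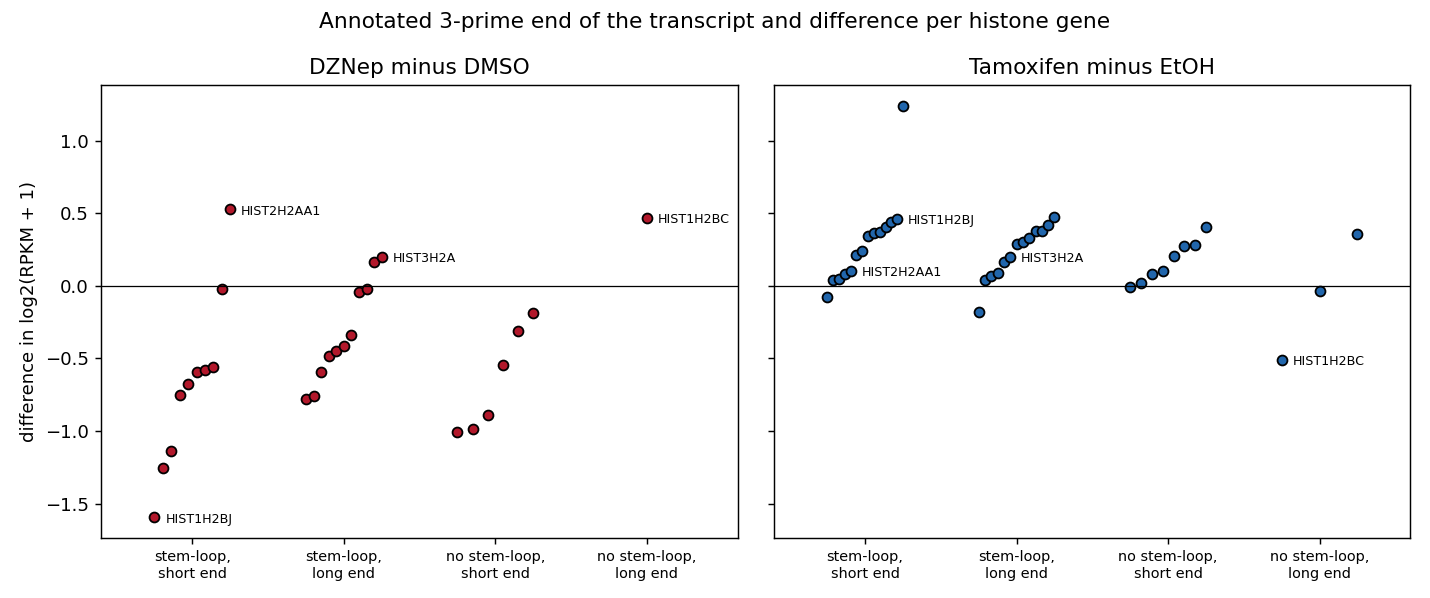
Difference in log2(RPKM + 1) per histone gene past the filter, grouped by the annotated 3′ end of its transcript (stem-loop or none, short or long end), for DZNep minus DMSO (left) and Tamoxifen minus EtOH (right). With DZNep the genes of the first class run from -1.59 to 0.53, and HIST1H2BC, alone in its class on the left, changes side between the panels.

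Other RNAs without poly(A) tails were examined as a gauge of how much non-polyadenylated RNA the libraries held. RMRP, the RNA of RNase MRP, measured 4.56, 2.37 and 3.40 RPKM with DZNep and 22.5, 2.08 and 20.4 RPKM with DMSO (limma adjusted p = 0.165). RPPH1, the RNA of RNase P, measured 5.13, 0.893 and 3.57 RPKM with DZNep and 14.8, 3.93 and 13.4 RPKM with DMSO (limma adjusted p = 0.0733). DMSO 2 lay among the DZNep libraries or below them for both, whereas DMSO 1 and DMSO 3 lay above every DZNep library. RN45S, the ribosomal RNA precursor and the third such gene tested, did not pass either (limma adjusted p = 0.681). Of the 3 only RPPH1 had an unadjusted p under 0.05 by limma, where 41.7% of all genes did. In DMSO 2, HIST1H2BJ was at 5.73 RPKM, the highest of the 6, and H3 genes summed to 20.4 RPKM. These are values of 1 library, and the part of poly(A) selection in the histone values was not tested.

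Genes that make and process histone mRNA were read in the same contrast. Of 13 tested with DZNep, 1 was called higher (16.6% of all genes tested) and 2 lower (11.1%). SLBP measured 31.3, 33.4 and 38.3 RPKM with DZNep and 35.2, 33.6 and 29.8 RPKM with DMSO (0.06, limma adjusted p = 0.634). NPAT, the coactivator of histone gene transcription at the histone locus body, measured 6.93, 6.25 and 6.88 RPKM with DZNep and 6.38, 6.32 and 6.89 RPKM with DMSO (0.03, limma adjusted p = 0.728). Both sets of values overlapped. CASP8AP2, a component of the histone locus body, rose (0.27, limma adjusted p = 0.0242), and HINFP, which activates H4 genes, fell (-0.24, 0.0256), as did the cleavage scaffold SYMPK (-0.36, 0.0145). Neither LSM10 (0.03) nor LSM11 (-0.17), both of the U7 particle, passed. Of 10 genes of histone mRNA decay, the decapping enzyme DCP2 rose (0.28, limma adjusted p = 0.0136) and 0 fell, beside the same shares of all genes. Single libraries decided some of these calls. Of the synthesis genes 1 was lower without DZNep 2, DZNep 3, DMSO 1 or DMSO 2, and 0 were higher without DMSO 2 or DMSO 3. Of the decay genes 2 were higher without DMSO 1.

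Variant histone genes have polyadenylated mRNAs and are used outside replication too. H3F3A and H3F3B, which encode H3.3, averaged 466 and 603 RPKM with DZNep, beside 474 and 566 RPKM with DMSO, far above the clustered genes per length. Neither passed the test (-0.03, limma adjusted p = 0.740, and 0.09, limma adjusted p = 0.244), and their difference from the clustered H3 genes was not tested. Of 11 variant genes tested 0 rose (16.6% of all genes tested) and 2 fell (11.1%). These 2 were the linker histone gene H1FX (-0.48, limma adjusted p = 7.34e-04) and the H2A variant gene H2AFJ (-0.41, limma adjusted p = 0.0112). Without DMSO 1, 2 rose.

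Histone chaperones and cell cycle genes were read beside these values. Over all genes tested with DZNep, 16.6% were called higher and 11.1% lower, with a median difference of 0.01. Of 22 chaperone genes 2 rose (DAXX, 0.27, and IPO4, 0.27) and 4 fell, namely ASF1B (-0.49), MMS22L (-0.33), NAP1L1 (-0.29) and TONSL (-0.27). ASF1B, the proliferation-linked partner of H3 and H4, measured 15.3, 14.9 and 16.4 RPKM with DZNep and 24.9, 22.2 and 19.6 RPKM with DMSO (limma adjusted p = 0.00591). Of 45 S phase genes 1 rose and 8 fell, with a median of -0.10, and of 45 genes of the G2 and M phases 2 were higher and 14 lower, with a median of -0.16. CASP8AP2 was counted in both the synthesis and the S phase list. Summed S phase levels overlapped, at 1042, 1115 and 1193 RPKM with DZNep and 1286, 1212 and 1096 RPKM with DMSO. S phase falls numbered 5 without DZNep 1 or DZNep 2, 4 without DMSO 2 and 13 without DMSO 3. S phase rises numbered 0 without DMSO 2 or DMSO 3. G2 and M phase falls numbered 8 without DZNep 1, 7 without DZNep 2 and 6 without DMSO 2, and rises 1 without DZNep 2, DZNep 3, DMSO 2 or DMSO 3. Chaperone falls numbered 2 without DMSO 2, and chaperone rises 1 without DZNep 1 or DMSO 3 and 0 without DZNep 2 or DMSO 2. The part of cell cycle differences in the histone values was not tested.

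Markers of other cell types were also summed. Fibroblast and smooth muscle markers gave 8.32 to 9.50 RPKM with DZNep and 3.05 to 4.32 RPKM with DMSO, carried by DCN and ACTA2, with COL1A2, COL3A1 and DES at 0 in these libraries. Immune markers gave 59.7 to 61.4 RPKM with DZNep and 43.8 to 48.6 RPKM with DMSO, carried by CD14 and CD68, while PTPRC, the pan-leukocyte marker, was at 0.00494 RPKM or less. Germ cell markers stayed at or below 0.141 RPKM in sum, endothelial markers at or below 0.486 RPKM and neuroendocrine markers at or below 0.616 RPKM. The part of the basal marker difference in the histone values was not tested.

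In the genetic experiment, organoids given Tamoxifen were compared with those given EtOH. An effect of Tamoxifen itself cannot be told apart here from one of Cre. The 67 histone values summed to 129 and 133 RPKM in Tamoxifen libraries, against 94.9 and 125 RPKM in EtOH libraries. The Tamoxifen libraries were the higher ones, but the distance between the EtOH libraries was larger than that between EtOH 2 and either Tamoxifen library. Of 38 genes tested, limma called 0 higher, where 0.692% of all 11123 genes were called higher, and 1 lower, where 1.38% were. Another 6 had an unadjusted p under 0.05, 7 in all, where 25.5% of all genes did.

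HIST1H2BC was the gene that fell. It measured 6.64 and 6.82 RPKM in Tamoxifen libraries, against 10.4 and 9.61 RPKM in EtOH libraries, without overlap. The difference was -0.51 (SE 0.0621; limma adjusted p = 0.0344), a mean 1.49-fold lower with Tamoxifen. Its call was lost without Tamoxifen 1 (adjusted p = 0.181) or Tamoxifen 2 (0.230) and with no filter (0.117), whereas the difference stayed between -0.53 and -0.49 in those fits. With DZNep the same gene was higher, at 13.8 RPKM against 9.73 RPKM in DMSO. Whether the 2 experiments differed was not tested.

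HIST1H2BJ measured 6.25 and 8.48 RPKM with Tamoxifen and 3.53 and 7 RPKM with EtOH. The groups overlapped, since EtOH 2 lay above Tamoxifen 1, and the difference of 0.46 (SE 0.284) did not pass (limma adjusted p = 0.345). H3 genes summed to 23.8 and 23.6 RPKM with Tamoxifen and 16.8 and 23.2 RPKM with EtOH, with EtOH 2 just below the Tamoxifen libraries. HIST1H3C measured 4.45 and 4.29 RPKM with Tamoxifen and 2.87 and 4.36 RPKM with EtOH (0.24, limma adjusted p = 0.374), and HIST1H3A 4.34 and 3.10 RPKM with Tamoxifen and 2.02 and 3.50 RPKM with EtOH (0.34, 0.363). All 8 tested H3 genes had differences above 0, and 0 of them had groups without overlap. Over all genes tested, 59.9% lay above 0, and 36.6% were higher and 23.2% lower without overlap. For HIST1H2BJ, HIST1H3C and HIST1H3A, EtOH 2 lay between the Tamoxifen libraries and EtOH 1 below both.

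The largest positive difference was that of HIST1H4M (1.24, SE 0.405; limma adjusted p = 0.147), which shares most of its windows with HIST1H4N. The pair summed to 2.40 and 2.97 RPKM with Tamoxifen and 1.41 and 1.86 RPKM with EtOH. HIST1H4I measured 4.52 and 6.22 RPKM with Tamoxifen and 3.62 and 3.49 RPKM with EtOH, separated but not past the threshold (0.47, SE 0.133; limma adjusted p = 0.122). HIST1H4B measured 2.24 and 1.80 RPKM with Tamoxifen and 0.625 and 2.04 RPKM with EtOH, with overlap (0.44, limma adjusted p = 0.379). HIST1H1C measured 12.3 and 9.85 RPKM with Tamoxifen and 7.06 and 9.53 RPKM with EtOH (0.38, limma adjusted p = 0.208). HIST3H2A measured 10.4 and 8.25 RPKM with Tamoxifen and 7.58 and 8.34 RPKM with EtOH (0.20, limma adjusted p = 0.316). Of these genes, HIST1H4M, HIST1H4I and HIST1H1C had groups that did not overlap.

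Below 0 beside HIST1H2BC were HIST1H2BG, HIST1H2BB, HIST2H2BE and HIST1H2AI, each with overlapping groups. HIST1H2BG measured 2.42 and 2.14 RPKM with Tamoxifen and 2.06 and 3.52 RPKM with EtOH (-0.18, limma adjusted p = 0.565). HIST1H2BB (-0.07, limma adjusted p = 0.631) and HIST2H2BE (-0.04, limma adjusted p = 0.833) averaged 1.08 and 1.00 RPKM with Tamoxifen, against 1.19 and 1.05 RPKM with EtOH. HIST1H2AI (-0.01, limma adjusted p = 0.986) averaged 3.12 RPKM with Tamoxifen and 3.19 RPKM with EtOH. Just above 0, HIST1H4D averaged 4.87 RPKM with Tamoxifen and 4.69 RPKM with EtOH (0.04, limma adjusted p = 0.860), and HIST2H2AA1 2.93 RPKM with Tamoxifen and 2.66 RPKM with EtOH (0.10, limma adjusted p = 0.466). Others past this filter alone were HIST1H1E, HIST1H2AE, HIST1H2AK, HIST1H2AN, HIST1H2BM, HIST1H2BP and HIST1H4F, whose differences ran from 0.08 to 0.36 with adjusted p of 0.143 or more by limma.

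A majority of small positive differences ran through the family. Of the 38 genes tested 33 lay above 0, beside 59.9% of all genes, and the median was 0.23, beside 0.04. In 13 the Tamoxifen libraries both lay above the EtOH libraries (36.6% of all genes) and in 1 below (23.2%). Over all 67 genes, groups did not overlap in 24 higher (30.4%) and 2 lower (20.3%). With no filter 0 histone genes were called in either direction, where 0.0061% of all genes were called higher and 0% lower. The pattern changed with which EtOH library was left out. From 2 controls, a low EtOH 1 and a high EtOH 2 cannot be told apart. Without Tamoxifen 1, 34 of 39 genes lay above 0 with a median of 0.235, and without Tamoxifen 2, 29 of 39 with a median of 0.153. Without EtOH 1, 22 of 39 genes lay above 0, the median was 0.01, and HIST1H4M differed by 1.88. The only control was then EtOH 2, where HIST1H4M was at 0.000375 RPKM and its near-copy HIST1H4N at 1.86 RPKM. That difference therefore depends on which of the pair the reads were assigned to. Without EtOH 2, 34 of 37 lay above 0, the median was 0.41, and HIST1H2BJ differed by 0.87. On the first principal component of all genes EtOH 1 stood at 27.8 and EtOH 2 at 6.11, with the Tamoxifen libraries at -18.3 and -15.5.

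The S phase list stood in the same library order as HIST1H2BJ. It summed to 1262 and 1406 RPKM with Tamoxifen and 1162 and 1274 RPKM with EtOH. Of its 45 genes 0 passed limma, where 2.07% of all genes did, and 10 had an unadjusted p under 0.05 (25.5% of all genes). Its median was 0.14, beside 0.04 for all genes tested. For genes of histone mRNA synthesis and of decay, 0 of 13 and 0 of 10 passed, and 0 had an unadjusted p under 0.05. SLBP measured 35.7 and 38.9 RPKM with Tamoxifen and 33.5 and 36.6 RPKM with EtOH (limma adjusted p = 0.472), and NPAT 6.39 and 6.61 RPKM with Tamoxifen and 7.72 and 7.01 RPKM with EtOH (0.217). Among histone variants H3F3A fell, with 379 and 371 RPKM in Tamoxifen and 517 and 511 RPKM in EtOH libraries (-0.45, limma adjusted p = 0.0381), a call lost without Tamoxifen 1 or Tamoxifen 2 and with no filter. RMRP measured 3.18 and 4.03 RPKM with Tamoxifen and 2.72 and 1.90 RPKM with EtOH (limma adjusted p = 0.140). Luminal markers summed to 3618 to 3822 RPKM with Tamoxifen and 4125 to 4449 RPKM with EtOH. Of the 9 tested, 0 were called higher and 1 lower, where 0.692% and 1.38% of all genes were. Basal markers summed to 4066 to 4178 RPKM with Tamoxifen and 5131 to 5529 RPKM with EtOH. Of the basal genes KRT14 fell (-0.49, limma adjusted p = 0.0424), whereas NGFR rose, at 10.9 and 12 RPKM with Tamoxifen and 7.39 and 7.42 RPKM with EtOH (0.56, limma adjusted p = 0.0330). Immune markers summed to 63.1 to 67.6 RPKM with Tamoxifen and 47.7 to 51.0 RPKM with EtOH, with PTPRC at 0.00483 RPKM or less. Their part and that of the S phase list in the histone values was not tested.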

How the data were processed

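Libraries were made from TRIzol RNA with a stranded TruSeq mRNA kit, per the labels' protocols, and processed with bcl2fastq 2.18, STAR and Cufflinks on mm9, per the submitters' processing notes. The authors deposited a table of log2 RPKM for each experiment, which bottoms out at 0 and was read here as log2(RPKM + 1). Counts were not recovered, so no count model was run. Genes averaging 1 RPKM or more in a table were tested with limma 3.58.1 (R 4.3.3; mean trend, two-sided, pseudocount 1) in separate fits, which left 4 residual degrees of freedom for the chemical and 2 for the genetic experiment. P-values were adjusted by Benjamini-Hochberg over all genes tested (threshold 0.05), and the procedure was tested on simulated data. In the genetic table, 27 rows with date symbols and 2 rows without values were left out. Histone symbols were matched to GENCODE M21 (67 of 67) and RefSeq (66 of 67), on a build other than mm9. Groups counted as not overlapping when every library of one lay beyond every library of the other. Members, gene lists and the rule for named genes (the 10 most abundant, the 4 largest differences each way, those called with Tamoxifen) were chosen with earlier results of these data known; other genes are named where a count of few called for it. Replicate numbers did not pair the libraries (correlations of deviations of -0.07 to 0.06). Alternatives were pseudocount 0.1, no filter or 5 RPKM, quantile or trimmed mean scaling, 2 other variance models, a replicate block, a joint fit and leaving out each library.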

Additional observations from a re-analysis of the deposited data

How the results depend on the processing

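Across the alternatives, 160 of 224 counts and EZH2 values were rated unchanged, as were 654 of 732 values of single histone genes. Counts had to stay within 1.5-fold. EZH2 and the Tamoxifen values of histone genes had to keep their sign and their side of the threshold, whatever their size. DZNep values of histone genes had to stay within the pooled SD of their libraries. Of the 732 values 6 were recorded as changing sign. With DZNep, a change of sign was recorded only for genes called in the main fit. With DZNep, histone calls numbered 19 (2 higher, 17 lower) under the other pseudocount, both scalings, both variance models and the joint fit. With no filter they numbered 29, of which 27 were lower, and with the 5 RPKM filter 1, of which 1 was higher and 0 lower, since only 3 histone genes were tested there. All genes split into 1850 higher and 1238 lower, into 1636 and 1637 with quantile scaling and into 1656 and 1472 with trimmed mean scaling. Leaving out each library gave 1522 to 3359 calls over all genes (981 to 2092 higher, 541 to 1267 lower), 19 to 40 over the pathway lists, and an EZH2 difference of -0.33 to -0.24. The EZH2 call was lost without DMSO 2 (-0.26, limma adjusted p = 0.0641).

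The replicate block, which the design does not support because the correlations of same-numbered deviations ran from -0.07 to 0.06, gave 1610 calls with DZNep (1016 higher, 594 lower), 18 among histone genes (2 higher, 16 lower) and 20 in the pathway lists, and EZH2 at -0.28 (limma adjusted p = 0.0588). With Tamoxifen the replicate block gave 878 calls (429 higher, 449 lower), 2 among histone genes (1 higher) and 6 in the pathway lists.

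With Tamoxifen, pseudocount 0.1 gave 116 higher calls over all genes. No filter left 1 call (1 higher, 0 lower), with 0 histone genes (0 lower) and 0 pathway genes. Quantile scaling gave 252 lower, and trimmed mean scaling 385 calls, 293 of them lower. Robust variances gave 646 (261 higher, 385 lower; 6 in the pathway lists) and the joint fit 1028 (466 higher, 562 lower; 6 in the pathway lists). Leaving out each library gave 37 to 977 calls (23 to 592 higher, 14 to 385 lower), 0 to 10 histone genes (0 to 9 higher, 0 to 1 lower), 0 to 8 pathway genes and an EZH2 difference of -0.058 to 0.21. A sign changed for EZH2 without EtOH 1 (-0.058). It also changed for 4 histone genes as libraries were left out: HIST1H2AI (0.05 without Tamoxifen 1, 0.22 without EtOH 2), HIST1H4D (-0.12 without Tamoxifen 2, -0.011 without EtOH 1, up to 0.20), HIST1H4B (-0.012 without EtOH 1, 0.89 without EtOH 2) and HIST1H2BG (-0.46 without EtOH 1, 0.10 without EtOH 2). Of these, HIST1H4B without EtOH 2 was called (limma adjusted p = 0.0372). The causes were not tested. Absolute depth is unknown, so no counting error can be given for genes near 1 RPKM.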
